A study of Mus musculus with 30 samples.

Results

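The genes described are those of the constitutive proteasome, with its regulators and the chaperones that build it, in mice lacking Clpp and in wild-type littermates. They were chosen by symbol, as every gene named Psma, Psmb, Psmc, Psmd, Psme, Psmf or Psmg followed by a digit, leaving out the inducible subunits Psmb8, Psmb9 and Psmb10. Each gene is represented by its brightest probe set, averaged over all arrays, among those assigned to its symbol alone. This gave 44 of the 17097 genes on the arrays, of which 42 encode proteasome subunits, regulators or chaperones. The other 2, Psmc3ip and Psme3ip1, match by symbol only: the first is a factor of meiotic recombination and the second is named as a partner of Psme3. Psmc6, Psmd10, Psme2b and Psme4 were not analysed here, because no probe set carried their symbol alone.

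RNA was measured on 30 arrays in 10 groups of 3, namely testis, liver, muscle (skeletal muscle), brain and heart of Clpp knockout mice and the same 5 tissues of wild-type littermates, all on a C57BL/6 background. Clpp encodes the peptidase ClpP of the mitochondrial matrix, which is not part of the proteasome. The labels give no age or sex, and they do not say whether the 3 arrays of a group are separate animals, or whether an animal gave more than 1 tissue. P-values therefore measure the spread between these samples. The labels name no Cre or transgene. Values are log2 signals, so a difference of 1 is a 2-fold change, and differences are knockout minus wild type with their standard error (SE) from a limma fit of all genes. A gene was called changed at a Benjamini-Hochberg adjusted p below 0.05 over all genes of a comparison.

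The proteasome is the main protease of the cytosol and the nucleus and degrades proteins tagged with ubiquitin. Its 20S core is a barrel of outer alpha rings, which gate the entrance, and inner beta rings, some of whose subunits cut the substrate. The 19S regulatory particle caps the barrel, with a base of ATPases that unfold substrates and a lid that handles ubiquitin. The PA28 activators open the gate without ubiquitin. Male germ cells make their own form, in which the alpha subunit Psma8 takes the place of Psma7.

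The targeted gene was lower on every knockout array, with a difference of -3.23 in testis and between -5.56 and -4.82 in the other tissues. Tissue markers matched the labels, with mean levels over the list of 12.76 to 12.83 on knockout and 12.71 to 12.76 on wild-type liver arrays for the liver list, for example. Some arrays had markers of another tissue. Wild-type testis replicate 3 had a mean of 10.96 over the epididymal list, against 2.63 to 2.999 on the other testis arrays, and wild-type muscle replicate 1 had a mean of 5.99 over the elongating spermatid list, against 2.81 to 3.003 on the other muscle arrays. The liver marker Alb was at 8.33, 6.91 and 5.03 in knockout heart, against 3.395, 5.53 and 3.19 in wild-type heart, and at 7.30 on knockout muscle replicate 1, against 2.81 to 3.78 on the other muscle arrays. Heart arrays varied in the heart list, with means of 8.70 to 13.02 in knockout and 9.05 to 10.12 in wild-type mice. Array medians lay between 3.24 and 3.38, and the small number of arrays limits the precision.

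In knockout testis most proteasome genes differed from wild type. Of 44 genes 31 rose, 7 fell and 6 were not called, and no knockout array overlapped the wild-type arrays for any of the 38 called. Over all genes on the arrays 32.8% rose and 23.4% fell, 56.2% together. Among the 5168 well-measured genes, those whose signal averaged 6 or more, 62.9% rose and 17.1% fell, and 41 of these 44 genes belong to them. Groups did not overlap in 35.3% of all genes with knockout above and in 28.2% with knockout below. The median difference was 0.69 over the 44 genes, 0.02 over all genes and 0.69 over the well-measured genes, so the 44 genes did not stand above well-measured genes by their median.

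The differences were also computed against that shift. With each array centred on its median over the well-measured genes, called the centred scale here, the median of all genes moved to -0.54 and that of the 44 genes to 0.13. Over all genes 18.7% were called higher and 58.6% lower on that scale, against 19 and 14 of the 44 genes. Of the 31 genes that rose, 19 were still called higher, 11 were not called, 6 of them with a negative difference, and Psmc5 was called lower. The 7 genes that fell remained lower, and the 6 uncalled genes were all called lower on that scale. Without wild-type testis replicate 3, on the deposited scale, 39 genes were called.

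Markers of testis cell types differed between genotypes as well. All 10 markers of elongating spermatids and all 7 of round spermatids fell in knockout testis, with medians of -4.22 and -4.49. The mean level of the elongating spermatid list lay between 7.29 and 8.30 on knockout arrays, against 11.88 to 12.31 on wild-type arrays. All 9 Sertoli markers and all 6 Leydig markers rose, with medians of 1.56 and 1.62, as did 5 of 6 spermatocyte, 5 of 7 spermatogonial and 5 of 6 macrophage markers. Over all genes 32.8% rose and 23.4% fell, and among the well-measured genes 62.9% and 17.1%. No centred values are given for the markers. The Sertoli marker Amh lay below the array medians of 3.24 to 3.38, at 2.80 to 2.94 in knockout and 2.55 to 2.75 in wild-type testis. In whole tissue, fewer cells of a type and less RNA per cell cannot be told apart, and the part of these shifts in the proteasome values was not tested. For the Gapdh controls the 3′ signal exceeded the 5′ signal, a sign of RNA quality, by 0.55 ± 0.04 in knockout and 0.98 ± 0.17 in wild-type testis (SD, n = 3), whose part was not tested either.

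**Figure D1:**
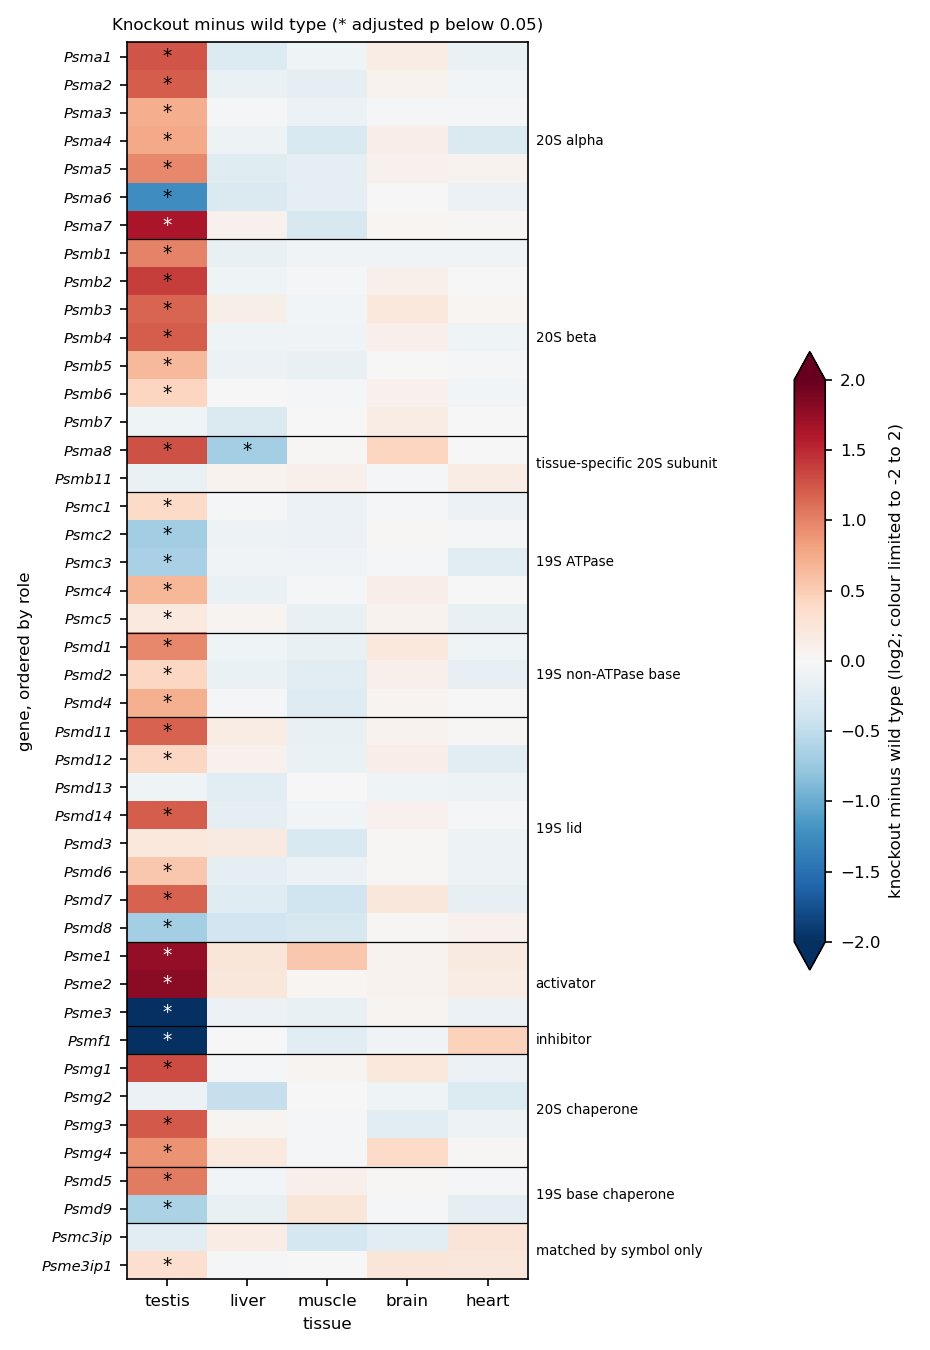
Knockout minus wild-type difference (log2, colour) of each of the 44 genes (rows, grouped by role) in 5 tissues (columns), with a star for an adjusted p below 0.05. Stars fill the testis column for 38 genes, of which 31 rose (7 of these 31 have a negative difference when arrays are centred on the well-measured genes) and 7 fell, and 1 star lies outside it, at Psma8 in liver.

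By the brightest probe sets, the largest changes were in genes of regulators of the 20S core. Psme1 and Psme2 encode the alpha and beta subunits of the PA28 activator, which works in the cytosol together with the inducible core and is known for its part in antigen processing. Psme3 encodes the related PA28 gamma, which works in the nucleus. Psmf1 encodes PI31, first described as an inhibitor of the 20S core.

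Psmf1 had signals of 7.68, 6.97 and 7.66 in knockout testis, against 11.18, 10.48 and 10.79 in wild-type testis. The difference was -3.38 ± 0.18 (adjusted p = 3.14e-14), the largest of any of the 44 genes in either direction. Psmf1 had 3 further probe sets, with testis differences of -0.07, -0.09 and 0.26 at mean levels of 5.13, 3.88 and 2.99, and none of them was called, so the fall rests on 1 probe set.

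Psme3 had signals of 7.22, 7.36 and 7.48 in knockout testis, against 10.10, 9.94 and 9.97 in wild-type testis. It fell by 2.65 ± 0.10 (adjusted p = 1.70e-17), and the knockout mean of 7.35 was close to the mean of 7.52 over the other 4 wild-type tissues. A dimmer second probe set, with a mean of 4.03, was called in the other direction, with a difference of 0.44 (adjusted p = 0.0301).

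The other PA28 genes rose. Psme2 had signals of 8.14, 8.33 and 8.02 in knockout testis, against 6.21, 6.04 and 6.85 in wild-type testis, a difference of 1.80 ± 0.15 (adjusted p = 9.47e-11). Psme1 had 8.34, 8.30 and 7.95 in knockout testis, against 6.10, 6.29 and 6.94 in wild-type testis, a difference of 1.75 ± 0.17 (adjusted p = 2.19e-09). The highest wild-type value of each belonged to replicate 3, the array with epididymal RNA. Without that array the differences were 2.04 for Psme2 and 1.998 for Psme1. The 3 activator genes thus split, with Psme1 and Psme2 higher and Psme3 lower, also on the centred scale, at 1.19, 1.24 and -3.21 for Psme1, Psme2 and Psme3.

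Promoters are shown for 4 genes chosen from both ends of the testis differences, as windows of the RefSeq table (GRCm38.p6) from 250 bases before to 50 bases after the gene's start, read along the gene's own strand. Psmf1 and Psme3 are the largest falls, Psme1 is among the largest rises, and Psma7 is the core subunit with the largest rise. Capitals mark matches, on either strand, to TGACNNNGC (the core of the antioxidant response element), the CCAAT box, or the GC box with the letters GGGCGG.
Psmf1, chr2:151741261-151741560, minus strand: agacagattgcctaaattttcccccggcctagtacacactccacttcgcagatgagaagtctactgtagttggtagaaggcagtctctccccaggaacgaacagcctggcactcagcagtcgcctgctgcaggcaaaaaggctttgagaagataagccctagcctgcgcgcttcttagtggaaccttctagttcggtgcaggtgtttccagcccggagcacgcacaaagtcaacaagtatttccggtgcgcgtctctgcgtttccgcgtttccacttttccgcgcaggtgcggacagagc
Psme3, chr11:101315963-101316262, plus strand: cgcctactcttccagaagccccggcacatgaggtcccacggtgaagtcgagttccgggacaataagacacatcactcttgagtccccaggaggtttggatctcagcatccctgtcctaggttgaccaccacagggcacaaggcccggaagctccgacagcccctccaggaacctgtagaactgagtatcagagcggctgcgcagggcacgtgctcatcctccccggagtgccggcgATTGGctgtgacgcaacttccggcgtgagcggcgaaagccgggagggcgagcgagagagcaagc
Psme1, chr14:55578244-55578543, plus strand: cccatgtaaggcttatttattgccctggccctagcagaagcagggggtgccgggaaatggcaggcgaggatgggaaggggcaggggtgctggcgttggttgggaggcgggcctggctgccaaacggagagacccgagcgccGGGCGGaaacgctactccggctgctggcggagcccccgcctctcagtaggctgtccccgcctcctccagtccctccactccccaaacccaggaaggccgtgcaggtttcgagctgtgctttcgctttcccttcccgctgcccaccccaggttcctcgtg
Psma7, chr2:180042415-180042714, minus strand: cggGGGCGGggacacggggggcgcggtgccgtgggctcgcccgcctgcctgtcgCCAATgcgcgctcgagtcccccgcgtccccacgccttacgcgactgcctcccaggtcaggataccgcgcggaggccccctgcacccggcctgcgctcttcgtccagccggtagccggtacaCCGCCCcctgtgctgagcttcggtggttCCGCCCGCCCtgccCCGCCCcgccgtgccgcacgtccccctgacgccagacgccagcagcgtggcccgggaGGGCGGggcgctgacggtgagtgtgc
The Psma7 window held 6 matches to GGGCGG and 1 to CCAAT, that of Psme1 held 1 to GGGCGG, and that of Psme3 held 1 to CCAAT on the other strand, 14 bases before the start. The Psmf1 window held none of the 3 motifs.

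Windows were found for 36 of the 44 genes, 27 of them higher in knockout testis and 6 lower. GGGCGG was present in 63.0% of the 27 and 33.3% of the 6, against 35.9% of 27025 windows of all genes. CCAAT was present in 8 of the 27 (29.6%) and 3 of the 6, against 37.9%, and TGACNNNGC in 11.1% and 16.7%, against 12.5%. These are counts of letters in a fixed window and were not tested. Over all 36 windows the GC box was present in 52.8%, the CCAAT box in 36.1% and the antioxidant response core in 11.1%.

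On the deposited scale most 20S core genes rose in testis. Of the 7 alpha genes 6 rose and 1 fell (median 0.96), and of the 7 beta genes 6 rose and 1 was not called (median 0.99). Over all genes 32.8% rose and 23.4% fell, and among well-measured genes 62.9% and 17.1%, with a median of 0.69. On the centred scale 4 alpha and 4 beta genes were higher and 1 of each was lower, against 18.7% and 58.6% of all genes. Psma7 had signals of 9.69, 9.61 and 9.39 in knockout testis, against 7.70, 7.64 and 8.43 in wild-type testis, a difference of 1.64 ± 0.14 (adjusted p = 1.53e-10). Here too the highest wild-type value was that of replicate 3, and the difference was 1.89 without it. A second Psma7 probe set gave 1.79.

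Psmb2, a structural beta subunit, had 10.14, 10.10 and 9.87 in knockout testis, against 8.71, 8.495 and 8.78 in wild-type testis, a difference of 1.38 ± 0.09 (adjusted p = 1.18e-12). Psma1 had 8.54, 8.56 and 8.29 in knockout testis, against 7.16, 7.12 and 7.34 in wild-type testis, a difference of 1.26 ± 0.10 (adjusted p = 1.18e-10). Every knockout array was above every wild-type array for both genes. Psmb4, Psma2, Psmb3, Psmb1 and Psma5 rose by 1.21, 1.21, 1.16, 0.99 and 0.96.

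The 3 catalytic subunits had the smallest differences of the 7 beta genes. Psmb5, which carries the chymotrypsin-like site, rose by 0.65 ± 0.11 (adjusted p = 1.25e-05), and Psmb6, with the caspase-like site, by 0.42 ± 0.10 (adjusted p = 5.18e-04), though on the centred scale neither was called, at 0.09 and -0.13. Psmb7, with the trypsin-like site, had 8.57, 8.58 and 8.72 in knockout testis, against 9.06, 8.05 and 8.997 in wild-type testis, and was not called (-0.08 ± 0.18, adjusted p = 0.747). The wild-type arrays of Psmb7 spread widely and enclosed the knockout arrays. Psmb7 was called lower on the centred scale (-0.64, adjusted p = 0.00204) and without wild-type testis replicate 2 (-0.41, adjusted p = 0.0116). No test was made of the difference between catalytic and structural subunits.

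Psma6 was the exception among the alpha subunits. It had 9.74, 9.93 and 10.02 in knockout testis, against 11.18, 11.16 and 11.10 in wild-type testis, and fell by 1.25 ± 0.10 (adjusted p = 4.84e-11). The wild-type arrays were nearly equal and the knockout arrays all lay below them.

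**Figure D2:**
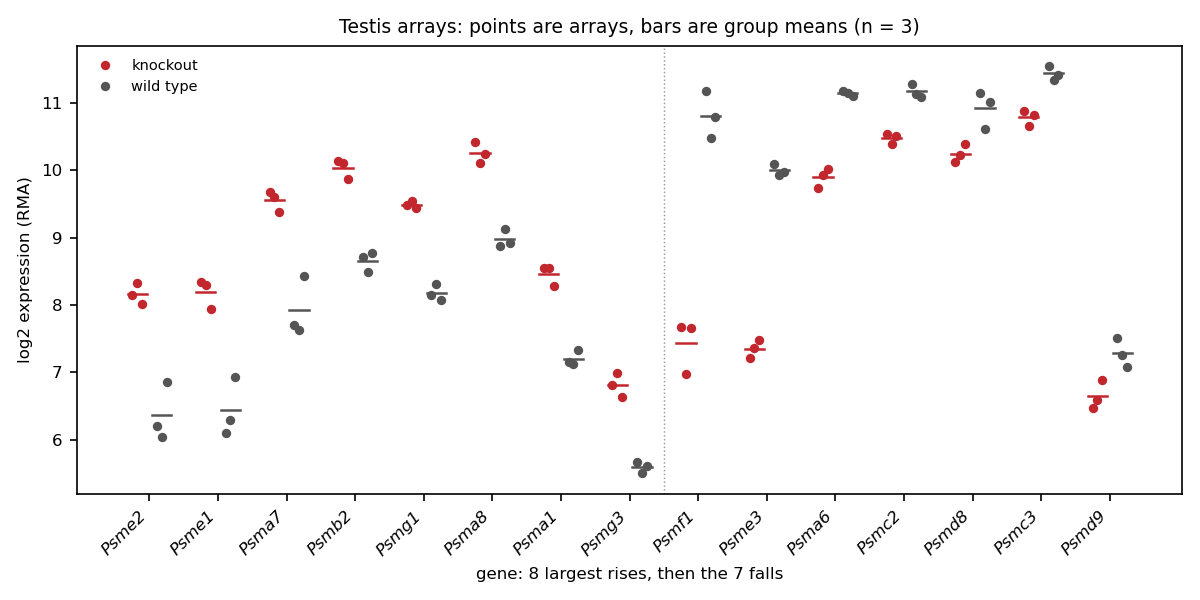
Log2 signal on each of the 3 knockout (red) and 3 wild-type (grey) testis arrays for the 8 genes with the largest rises and the 7 that fell, with bars at the group means. The knockout points lie above all wild-type points for the 8 genes on the left and below them for the 7 on the right, directions that centring on the well-measured genes did not change for these 15 genes.

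The 19S genes were more divided. Of the 5 ATPases, which form the unfolding ring, Psmc1, Psmc4 and Psmc5 rose by 0.38, 0.67 and 0.20, but on the centred scale Psmc1 and Psmc4 were not called (-0.18 and 0.11) and Psmc5 was called lower (-0.36). Psmc2 had 10.53, 10.39 and 10.51 in knockout testis, against 11.28, 11.14 and 11.10 in wild-type testis, and fell by 0.70 ± 0.09 (adjusted p = 2.11e-07). Psmc3 had 10.88, 10.66 and 10.83 in knockout testis, against 11.55, 11.34 and 11.42 in wild-type testis, and fell by 0.65 ± 0.10 (adjusted p = 2.92e-06). No ATPase was called higher on the centred scale, and 3 of the 5 were called lower, where 18.7% and 58.6% of all genes were.

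The 3 other base subunits rose, Psmd1, the largest scaffold of the base, by 0.97, Psmd2, which docks shuttle factors, by 0.42 and Psmd4, a ubiquitin receptor, by 0.71; on the centred scale only Psmd1 was still called (0.41), and Psmd2 was at -0.14. Of the 8 lid genes 5 rose, 1 fell and 2 were not called (median 0.48). Over all genes 32.8% rose and 23.4% fell, and among well-measured genes 62.9% and 17.1%. On the centred scale 3 lid genes were called higher and 3 lower, against 18.7% and 58.6% of all genes. Psmd14, the subunit that cuts ubiquitin chains from the substrate, had 9.49, 9.91 and 9.77 in knockout testis, against 8.37, 8.64 and 8.53 in wild-type testis, and rose by 1.21 ± 0.11 (adjusted p = 4.92e-10). Psmd7, its partner in the lid, rose by 1.18 ± 0.13 on its brightest probe set. Dimmer Psmd7 probe sets, with means of 4.97 and 3.05, gave 0.15, not called, and -0.31 (adjusted p = 0.0443).

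Psmd11 rose by 1.18 ± 0.11 (adjusted p = 5.89e-10) on its brightest probe set, but its 4 other sets gave smaller or opposite values. The next brightest, at a mean of 8.59, gave 0.25 (adjusted p = 0.0473), a dim set at a mean of 2.99 gave -1.70 (adjusted p = 8.82e-11), and the other 2 were not called. Psmd8 had 10.12, 10.22 and 10.39 in knockout testis, against 11.14, 10.61 and 11.01 in wild-type testis, and fell by 0.68 ± 0.13 (adjusted p = 7.64e-05). Psmd13 and Psmd3 were not called, at -0.08 ± 0.17 (adjusted p = 0.734) and 0.21 ± 0.13 (adjusted p = 0.174). Without wild-type testis replicate 3 Psmd3 was called higher at 0.32, whereas on the centred scale it was called lower at -0.35.

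Chaperones build the core and the base before these join. Psmg1 to Psmg4 guide assembly of the alpha ring, and 3 of the 4 rose, where 32.8% of all genes and 62.9% of well-measured genes did. The same 3 were higher on the centred scale, where 18.7% of all genes were. Psmg1 had 9.48, 9.54 and 9.45 in knockout testis, against 8.16, 8.31 and 8.08 in wild-type testis, a difference of 1.31 ± 0.09 (adjusted p = 4.41e-12). Psmg3 had 6.82, 6.99 and 6.64 in knockout testis, against 5.67, 5.50 and 5.62 in wild-type testis, a difference of 1.22 ± 0.12 (adjusted p = 1.38e-09). Psmg4 rose by 0.91. Psmg2 was not called (-0.11 ± 0.19, adjusted p = 0.664), but was called lower on the centred scale (-0.67).

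The 2 chaperones of the 19S base went opposite ways. Psmd5 rose by 1.04 ± 0.11 (adjusted p = 1.24e-08). Psmd9 had 6.47, 6.60 and 6.89 in knockout testis, against 7.51, 7.26 and 7.08 in wild-type testis, and fell by 0.64 ± 0.15 (adjusted p = 8.38e-04). Its 2 dimmer probe sets, with means of 3.54 and 3.38, gave 0.49 and 0.03, and the mean of all its probe sets was not called.

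Psma8, the alpha subunit of male germ cells, was near background outside the testis. In wild-type mice its means were 8.98 in testis, 3.79 in liver, 3.36 in heart, 3.04 in muscle and 2.46 in brain. Only the testis value stood clear of the array medians of 3.24 to 3.38. The germ cell subunit was not lower in knockout testis: it had 10.43, 10.10 and 10.24 there, against 8.88, 9.14 and 8.93 in wild-type testis, and rose by 1.28 ± 0.18 (adjusted p = 9.54e-07), and by 0.72 on the centred scale. Its counterpart in other cells, Psma7, rose by 1.64 in the same arrays.

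Of the other genes bound to one tissue, Psmb11, the beta subunit of the thymic cortex, had group means between 2.56 and 2.96 in every group, and no tissue called it (testis -0.13 ± 0.13, adjusted p = 0.452). Psmc3ip had 9.69, 9.51 and 9.94 in knockout testis, against 10.09, 9.93 and 9.82 in wild-type testis, so that the groups overlapped (-0.23 ± 0.16, adjusted p = 0.246). Outside testis its group means lay between 3.78 and 4.79. The differences in liver, muscle, brain and heart were 0.16, -0.34, -0.22 and 0.26 for Psmc3ip and 0.06, 0.10, -0.04 and 0.15 for Psmb11, none of them called. Psme3ip1 rose by 0.34 ± 0.10 in testis (adjusted p = 3.29e-03), but was at -0.21 and not called on the centred scale.

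The level of each gene in wild-type testis was set beside its change in knockout testis. The comparisons share the 3 wild-type testis arrays, so their values are given side by side and no relation between them was tested. The shared mean enters them with opposite signs, so for any gene a fall tends to stand beside a higher wild-type level. In wild-type mice 13 of the 44 genes were higher in testis than in the mean of the other 4 tissues and 26 were lower, against 32.1% and 40.7% of all genes. On the centred scale 19 were higher and 20 lower, with a median of -0.06, against 57.3% and 27.4% of all genes. On the deposited scale the median was -0.57, against -0.10 over all genes and -0.62 over the well-measured genes. Psma8 was 5.82 higher in testis, a lower bound, since its level elsewhere was near background. The next were Psmc3ip (5.66), Psmf1 (4.92), Psme3 (2.48) and Psmc3 (1.54), and the largest deficits were those of Psme1 (-2.36), Psmd11 (-1.92), Psme2 (-1.84), Psma7 (-1.78) and Psma1 (-1.71). These are values of the brightest probe sets. The 3 further sets of Psmf1 gave 0.39, 0.36 and -0.53, and the second of Psme3 gave 0.03. The 4 others of Psmd11 gave -0.77, -0.34, -0.06 and 1.67. A second Psma7 set gave -1.78, and 2 sets of Psma1 near background gave -0.20 and -0.04.

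All 7 genes that fell in knockout testis were among the 13 with a higher level in wild-type testis. Of the 31 that rose, 25 were lower in wild-type testis, 2 were not called and 4 were higher. Of these 31, 19 were lower, 5 not called and 7 higher on the centred scale, with all 7 falls still among the higher ones. No such counts over all genes are given here, and whether the proteasome genes differ from other genes in this was not tested. The falls of Psma6, Psmc2, Psmd8 and Psmd9 stood beside wild-type testis excesses of 1.45, 1.32, 1.29 and 1.47. The 2 dimmer probe sets of Psmd9 gave -0.09 and -0.51. Across all 5 wild-type tissues, 22 genes had their highest mean in muscle and 11 in testis, while 23 had their lowest in testis and 16 in brain.

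**Figure D3:**
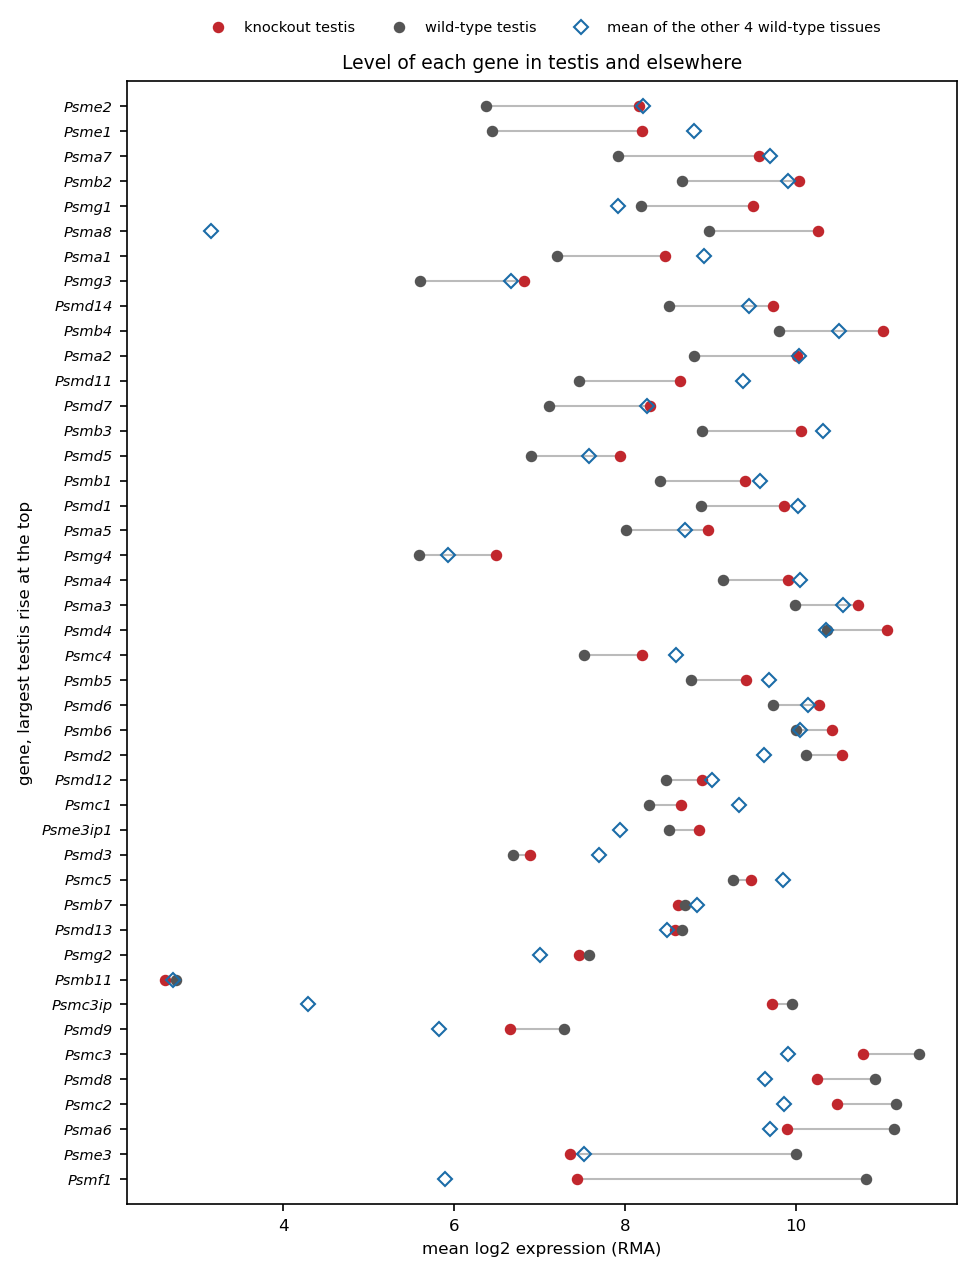
Mean log2 signal of each of the 44 genes in knockout testis (red), in wild-type testis (grey) and over the other 4 wild-type tissues (blue diamonds), ordered by the testis difference. The 7 genes that fell, at the bottom, all have wild-type testis means above the diamond, though the wild-type testis mean enters both comparisons. No count over all genes is given for this pattern. Psma8 and Psmc3ip have diamonds far to the left, at 3.16 and 4.28.

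The testis difference was set against that of the other tissues in 1 test. The knockout effect in testis differed from the mean effect of the other 4 tissues for 37 of the 44 genes, 30 with a higher and 7 with a lower effect in testis, where 32.2% and 23.3% of all genes did so, 55.5% together. On the centred scale these counts were 19 and 15, against 17.8% and 57.6% of all genes. By the F test of all 5 tissue effects 37 of 44 genes differed, against 52.3% of all genes. Psmf1 and Psme3 gave the largest differences between testis and the other tissues, at -3.42 ± 0.20 and -2.57 ± 0.11, followed by Psma7 and Psme2 at 1.68 ± 0.15 and 1.68 ± 0.17.

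Outside the testis differences were small, and 1 call was made in 4 tissues. Liver called 1 of the 44 genes, which was lower, against 2.42% of all genes, 1.5% of them lower. Muscle, brain and heart called none, against 1.54%, 0.415% and 2.18% of all genes. At an unadjusted p below 0.05, 7 genes passed in liver, 9 in muscle, 5 in brain and 5 in heart, where 13.1%, 12.8%, 7.91% and 13.8% of all genes did. Knockout arrays lay wholly above wild-type arrays for 3 of the 44 genes in liver, 2 in muscle, 10 in brain and 1 in heart, where 7.9%, 9.36%, 9.18% and 7.73% of all genes did. They lay wholly below for 10 in liver, 13 in muscle, 1 in brain and 8 in heart, where 8.8%, 10%, 6.62% and 11.6% of all genes did. The lowest adjusted p was 0.128 in muscle (Psmd7), 0.152 in brain (Psmg4) and 0.188 in heart (Psma4).

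The gene called in liver was Psma8, at levels near the array medians. It had 3.005, 3.07 and 3.25 in knockout liver, against 4.09, 3.97 and 3.303 in wild-type liver, a difference of -0.68 ± 0.18 (adjusted p = 0.041). The wild-type arrays were uneven, with replicate 3 close to the knockout arrays. The call was lost when knockout liver replicate 1 or 2, wild-type liver replicate 1 or 2 or wild-type heart replicate 2 was left out. Knockout liver replicate 1 had the largest Gapdh 3′ excess of the liver arrays, at 1.66. Psma8 was not called in brain (0.43 ± 0.18, adjusted p = 0.535), muscle (0.02) or heart (-0.00).

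In muscle the core subunits leaned one way without any call. All 30 subunits of the 20S core and the 19S particle had a negative difference, with a median of -0.13, against -0.04 over the well-measured genes, of which 59.8% were negative. In 12 of the 30 the knockout arrays all lay below the wild-type arrays, where 10% of all genes did so. On the centred scale 26 of the 30 were negative, against 52.5% of the well-measured genes. On the deposited scale, without knockout muscle replicate 1, the array with Alb, 29 were negative with a median of -0.14. Without wild-type muscle replicate 1, which carried spermatid transcripts, 28 were negative with a median of -0.11. The largest was Psmd7, with 9.23, 8.91 and 9.18 in knockout muscle, against 9.69, 9.45 and 9.38 in wild-type muscle (-0.40 ± 0.13, adjusted p = 0.128). Its dimmer probe sets gave -0.04 and 0.27 in muscle.

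The per-array medians of these 30 subunits show the size of the lean. Relative to the wild-type mean they were -0.09, -0.13 and -0.19 on the knockout muscle arrays, against 0.03, 0.01 and -0.02 on the wild-type muscle arrays, without overlap. The well-measured genes did not overlap either, at -0.0413, -0.0377 and -0.0466 in knockout muscle, against 0.0013, -0.0117 and 0.0081 in wild-type muscle. In liver the subunit medians were -0.14, -0.06 and -0.11 in knockout, against 0.03, -0.01 and -0.04 in wild type, and the well-measured genes were at -0.0595, -0.0249 and -0.0258, against 0.0085, -0.0022 and -0.0065, both without overlap. Knockout liver replicate 1, the lowest of these, had a Gapdh 3′ excess of 1.66, against 0.77 to 1.03 on the other liver arrays. The part of RNA quality was not tested. In liver 23 of 30 subunits were negative, against 57.9% of well-measured genes, and 20 on the centred scale, against 47.6%. In brain 24 of 30 were positive, or 26 on the centred scale. There 50.8% of well-measured genes were negative on the deposited scale and 45.5% on the centred scale. The brain medians of 0.11, 0.05 and 0.06 in knockout stood against 0.05, 0.03 and -0.06 in wild type. Heart had 24 of 30 negative, against 64.7% of well-measured genes, and 17 on the centred scale, against 57%. Its knockout medians of -0.01, -0.12 and -0.05 overlapped the wild-type medians of -0.00, 0.03 and -0.03. No subunit of the 30 was called in any of these tissues.

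**Figure D4:**
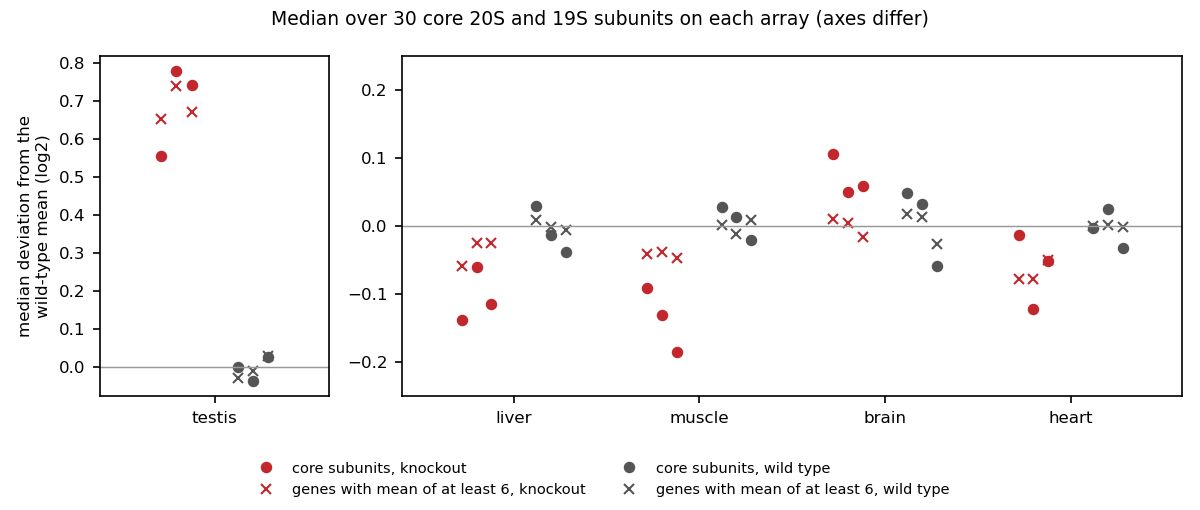
Median deviation from the wild-type mean (log2) on each array, over the 30 core 20S and 19S subunits (circles) and over the well-measured genes (crosses), for knockout (red) and wild type (grey), with a wider axis for testis. In testis circles and crosses rise together on the knockout arrays, to between 0.56 and 0.78 for the circles, with a core median of 0.13 after centring on the crosses, and in muscle the knockout circles lie below the crosses, between -0.19 and -0.09.

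Psme1 had the lowest adjusted p of the 44 genes in the mean over the 4 tissues outside the testis. It had 9.01, 8.68 and 8.95 in knockout muscle, against 8.26, 8.58 and 8.20 in wild-type muscle, without overlap (0.53 ± 0.17, adjusted p = 0.135). In liver it had 9.95, 9.67 and 9.71 in knockout, against 9.52, 9.56 and 9.50 in wild type (0.25 ± 0.17, adjusted p = 0.631). In heart and brain the groups overlapped, with differences of 0.18 and 0.07. The mean over the 4 tissues was 0.26 ± 0.09 (adjusted p = 0.0868), positive in all 4 but not called, and it was called without wild-type testis replicate 3 (adjusted p = 0.0371).

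Averaged over the 4 tissues without testis, none of the 44 genes was called by limma, against 4.02% of all genes, and 9 had an unadjusted p below 0.05, where 18.2% of all genes did. The median was -0.04, and also -0.04 over the well-measured genes. Averaged over all 5 tissues, 10 genes were higher and 8 lower on the centred scale, against 9.6% and 25.1% of all genes. On the deposited scale 21 were higher and 6 lower, against 17.1% and 16.5% of all genes. The higher ones were Psme1 (0.56), Psme2 (0.46), Psmb3, Psma7, Psmg4, Psmg1, Psmb2, Psmd11, Psmd5, Psmb4, Psma8, Psmd14, Psmg3, Psma1, Psma2, Psmd1, Psme3ip1, Psma5, Psmc4, Psmb1 and Psma3. The lower ones were Psmf1 (-0.64), Psme3 (-0.60), Psma6 (-0.36), Psmd8 (-0.25), Psmc3 (-0.21) and Psmc2 (-0.18). The calls of Psma8, Psmb1 and Psma3 were weak, lost in 25 of 45, 20 of 46 and 19 of 46 alternatives, among them the replicate block and fits without single arrays. All 27 were also called in testis, whose arrays enter this mean.

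Of 18 other genes of the ubiquitin-proteasome system, 10 rose in testis and 2 fell, with a median of 0.47, against 62.9% and 17.1% of well-measured genes and their median of 0.69. On the centred scale 7 were higher and 8 lower, against 18.7% and 58.6% of all genes, with a median of -0.09. Of the genes named next, Ufd1 and Usp14 were not called on that scale and Ube3c was lower (-0.22). The proteasome maturation protein Pomp rose by 1.23, the scaffold Ecpas by 1.36, the shuttle factors Ubqln2 and Ubqln1 by 1.85 and 1.04, and the transcription factors Nfe2l2 and Nfe2l1, of which Nfe2l1 drives proteasome genes, by 1.25 and 1.201. Txnl1, Ufd1, Usp14 and Ube3c rose by 0.84, 0.66, 0.60 and 0.34. Ngly1, the deglycosylase that acts on Nfe2l1, fell by 2.49 ± 0.11 (adjusted p = 1.40e-15), and Rad23b, a shuttle factor, fell by 1.59 ± 0.13 (adjusted p = 1.05e-10). In the mean over the other 4 tissues Ube3c, Ubqln2 and Rad23b fell by 0.25, 0.24 and 0.23 (adjusted p = 3.55e-03, 0.0423 and 0.0473). There 4.02% of all genes were called in either direction. Ube3c alone among these falls was called on the centred scale, where 1.47% of all genes were lower. None of the 18 was called in any of those tissues by itself.

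The inducible subunits, which replace Psmb6, Psmb7 and Psmb5 in the immunoproteasome, were left out of the 44 genes, and no test was made of the difference between them and the constitutive genes. In testis Psmb10, Psmb8 and Psmb9 rose by 1.29, 1.23 and 0.97, each with the 3 knockout arrays above the wild-type arrays, though Psmb9 was not called on the centred scale (0.41). In brain Psmb8 had 5.13, 5.18 and 5.53 in knockout, against 4.07, 3.86 and 3.73 in wild type, a rise of 1.395 ± 0.28 (adjusted p = 0.0152). In the mean over the 4 tissues Psmb8 and Psmb9 rose by 0.86 ± 0.14 and 0.58 ± 0.12 (adjusted p = 6.49e-04 and 5.38e-03), and Psmb10 was not called (0.30 ± 0.10, adjusted p = 0.0922). No inducible subunit was called in liver, muscle or heart alone.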

How the data were processed

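The authors deposited 1 log2 signal per probe set and array, from RMA in R 2.14.0 per the submitters' processing notes. Whether all 30 arrays were processed together is not given in the sources used here. No further normalization was applied. Gene names came from the platform annotation supplied with the series. Of 45141 probe sets, 28898 carried 1 gene symbol and 551 several. A single limma fit (3.58.1, R 4.3.3) covered 17097 genes and 10 group means, which leaves 20 residual degrees of freedom, with eBayes at its defaults. Tests were two-sided. The genes described, the lists and the alternatives were chosen with earlier results of these data known. Named genes were, per tissue, all called genes where 12 or fewer were called, otherwise the 8 largest rises and 8 largest falls without overlap plus the uncalled genes. Psma8, Psmb11 and Psmc3ip were described in every tissue, called genes named for means over tissues, the 5 largest wild-type testis differences each way, up to 4 genes per role and up to 6 of the pathway list. Beyond this rule, further role and pathway genes, Psme1 outside testis and Psmd7 in muscle were named after their values were seen. Promoter windows are RefSeq's. The fit was tested on simulated data. Replicate numbers were not used as pairs, since in no tissue did every same-numbered pair correlate above 0.1. The muscle pairs were at 0.03, 0.06 and 0.24. With 3 pairs per tissue the check cannot exclude pairing, and it did not address animals shared between tissues. Alternatives covered the scaling, the spread, probe set choice, filters and each array left out in turn; leaving out Psmc3ip and Psme3ip1, and backgrounds of well-measured genes, were added after seeing the data.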

Additional observations from a re-analysis of the deposited data

Results flagged for a closer look

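The knockout effect in testis differed from the mean effect of the other 4 tissues for 37 of the 44 genes, by the interaction contrast of the limma fit (adjusted p below 0.05, against 55.5% of all genes in either direction). Values are the testis difference minus the mean difference of the other tissues, in log2 units on the deposited scale. There 30 genes were higher and 7 lower, against 32.2% and 23.3% of all genes. On the centred scale 19 were higher and 15 lower, against 17.8% and 57.6%. Of the genes listed here, Psmc5 was called lower on the centred scale (-0.35). Psma3, Psmb5, Psmb6, Psmc1, Psmc4, Psmd2, Psmd4, Psmd6, Psmd12 and Psmg4 were not called on it. Among the 20S alpha genes they were 1.34 for Psma1, 1.28 for Psma2, 0.78 for Psma3, 0.90 for Psma4, 1.02 for Psma5, -1.11 for Psma6 and 1.68 for Psma7, with 1.33 for the germ cell subunit Psma8. Among the 20S beta genes they were 1.09 for Psmb1, 1.38 for Psmb2, 1.08 for Psmb3, 1.24 for Psmb4, 0.72 for Psmb5 and 0.42 for Psmb6.

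The 19S ATPases gave 0.46 for Psmc1, -0.64 for Psmc2, -0.56 for Psmc3, 0.68 for Psmc4 and 0.24 for Psmc5. The other base subunits gave 1 for Psmd1, 0.52 for Psmd2 and 0.77 for Psmd4. The lid gave 1.16 for Psmd11, 0.45 for Psmd12, 1.26 for Psmd14, 0.63 for Psmd6, 1.33 for Psmd7 and -0.53 for Psmd8. Regulators gave 1.49 for Psme1, 1.68 for Psme2, -2.57 for Psme3 and -3.42 for Psmf1. Chaperones gave 1.28 for Psmg1, 1.29 for Psmg3, 0.77 for Psmg4, 1.03 for Psmd5 and -0.60 for Psmd9.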

How the results depend on the processing

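Over 17 other settings and 30 fits that each left out 1 array, the named genes kept direction and side of the threshold in 5109 values, lost the call in 93, gained it in 8 and changed sign in 26. With both directions together, the testis count lay between 33 and 38 (37 to 39 with 1 array left out) and the interaction count between 34 and 38 (37 to 38). The wild-type testis count lay between 36 and 40 (39 in every such fit) and the 5-tissue count between 18 and 31 (24 to 27). The F test count lay between 32 and 37 (33 to 38). The directions moved more than these totals. On the centred scale 19 genes were higher and 14 lower in testis, against 31 and 7 on the deposited scale. For the interaction they were 19 and 15, against 30 and 7. For wild-type testis they were 19 and 20, against 13 and 26, and for the 5-tissue mean 10 and 8, against 21 and 6. The liver count of 1 became 0 with each tissue alone, the replicate block, a trended robust prior, centring on well-measured genes, the filter to those genes and adjusted p below 0.01. It became 2 with the probe set of highest variance, which adds Psmg2, and ran from 0 to 2 with 1 array left out, Psmd8 joining without knockout liver replicate 3. Brain gave 1 (Psmg4) with array weights, and the 4-tissue mean gave 1 with array weights (Psme1) and quantile normalization (Psmg4) and 0 to 1 with 1 array left out. Muscle and heart gave 0 to 0 in every fit. The replicate block changed no other call count by over 1.5 times.

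The testis median was 0.87 with quantile normalization, 0.13 on the centred scale and 0.42 with the mean of probe sets, and 0.66 to 0.76 with 1 array left out. The muscle median was -0.0589 with median centring over all genes, -0.0627 on the centred scale and -0.0655 with the mean of probe sets (-0.11 to -0.08 with 1 array left out), the brain median 0.11 with median centring (0.03 to 0.08), the liver median -0.0333 on the centred scale (-0.11 to -0.06) and the heart median -0.08 to -0.03 with 1 array left out.

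Signs changed as follows. The centred scale gave testis values of -0.35 for Psmd3, -0.18 for Psmc1, -0.21 for Psme3ip1 and -0.14 for Psmd2, interaction values of -0.14 for Psmc1 and -0.0734 for Psmd2, and 0.0394 for Psma8 in heart. The mean of probe sets gave -0.11 for Psmd11 in testis, and interaction values of 0.0177 for Psmd9 and -0.14 for Psmd11. Psmg2 in testis was 0.0802 with the probe set of highest variance and ran from -0.29 to 0.0151 with 1 array left out. Psmb7 in testis ran from -0.41 to 0.10, and was 0.0677 without wild-type testis replicate 3 and wild-type muscle replicate 1. Near background, the value for Psma8, heart was 0.0166 with array weights and ran from -0.0529 to 0.0510 with 1 array left out, and in muscle it was -0.0203 with quantile normalization and ran from -0.15 to 0.24. Psmb11 in liver was -0.0050 with array weights and ran from -0.14 to 0.18, and in brain it was 0.0018 with median centring. The cause was not tested.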
